A study of Homo sapiens with 3 samples.

Results

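The pair of libraries described here carry the same label, shNF2, and are numbered 20 and 21. They come from AB12, a mouse malignant mesothelioma cell line, and were compared gene by gene as the ratio of library 21 to library 20. The series has 3 libraries, these 2 and 1 labelled shSC, taken as the control hairpin, so each library stands alone in this comparison. The source names mark them as knockdowns b (library 20) and a (library 21). Whether the numbers are hairpins, clones or cultures is not in the labels, and the medium, RPMI with serum, was the same for all 3. Genes entered the comparison when they had a mouse Ensembl identifier and a mean of at least 50 scaled counts over the 2 shNF2 libraries, which 10846 of the 13936 genes in the table met. The genes nearest the limit were Ly6f, just inside at a mean of 50.2, and F8a, just outside at 49.97. The organism label reads human, whereas the identifiers and the build named by the submitters are mouse. Scaled counts are reads divided by 1 factor per library, as deposited. The ratio is given as log2((library 21 + 1)/(library 20 + 1)), so 1 is a 2-fold and 2 a 4-fold difference. With 1 library on each side there is no replicate check and no test between the libraries. Intervals are exact 95% intervals of the ratio of reads (Clopper-Pearson); they cover counting error only, on the log2 scale unless stated otherwise.

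The NF2 product, merlin, is a tumour suppressor beneath the cell membrane and is often lost in mesothelioma. Merlin helps to activate the Hippo kinases, which keep the coactivators YAP and TAZ out of the nucleus, where they would drive TEAD-bound genes for growth, adhesion and matrix.

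Nf2 itself was at a like level in both libraries. It measured 1539, 486 and 458 scaled counts in shSC, library 20 and library 21. The log2 ratio of library 21 to library 20 was -0.09, with an interval from -0.28 to 0.10 that holds 0. Among 27 Hippo kinases, adaptors and factors, 0 were 2-fold apart in either direction (1.63% over all genes), which says little in a list of this size. The list's median log2 ratio was 0.13, beside 0.01 over all 10846 genes. Yap1 had 2967, 3697 and 2961 scaled counts in shSC, library 20 and library 21, and Wwtr1, which encodes TAZ, had 2270, 1878 and 2130.

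At least 2-fold higher in library 21 were 85 genes (0.784% of those compared) and at least 2-fold lower were 92 (0.848%). At least 4-fold higher were 6 genes (0.0553%) and at least 4-fold lower 5 (0.0461%). The middle of the distribution was narrow: the quartiles of the log2 ratio lay at -0.21 and 0.20, and its 1st and 99th percentiles at -0.96 and 0.90. Low genes supplied most of the calls, since 128 of the 177 genes past 2-fold were in the lowest 2 of 8 equal groups by level. In 34 of the higher and 31 of the lower genes the whole counting interval was past 2-fold. The plot of ratio against level shows both tails.

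**Figure D1:**
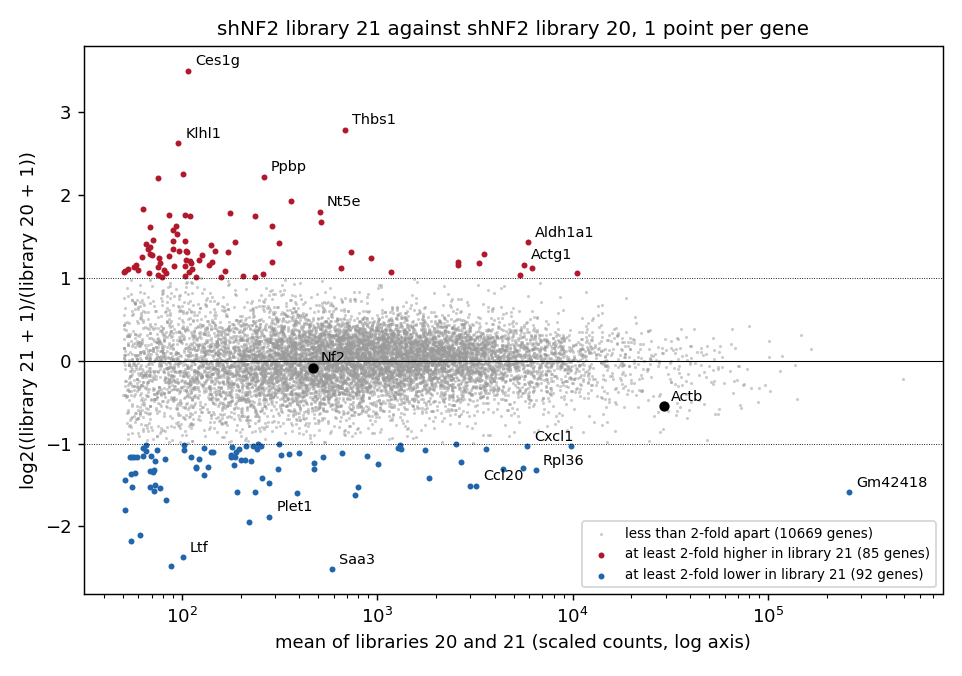
Each point is 1 of the 10846 genes, with the mean of libraries 20 and 21 in scaled counts on a log axis and the log2 ratio of library 21 to library 20; dotted lines mark 2-fold. Nf2 (log2 ratio -0.09) sits near 0, Ces1g (3.50) and Thbs1 (2.79) are the highest points and Saa3 (-2.52) the lowest, and calls are densest at low levels.

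Thbs1 and Nt5e were among the genes with the largest ratios in favour of library 21. Thbs1 encodes thrombospondin 1, a secreted matrix glycoprotein that can activate latent TGF-beta. It measured 99.3, 173 and 1196 scaled counts in shSC, library 20 and library 21, a log2 ratio of 2.79 (interval 2.56 to 3.04). Library 20 was itself somewhat above shSC, and library 21 was 6.93-fold above library 20. Nt5e encodes CD73, the surface enzyme that makes adenosine from AMP, and had 360, 227 and 791 scaled counts in the same order. For Nt5e the shNF2 libraries lay on opposite sides of shSC, with log2 ratios to it of -0.66 in library 20 and 1.13 in library 21. Of 17 compared genes of adenosine and purine signalling, Nt5e alone was 2-fold apart (1.63% over all genes), and the list's median was -0.09.

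Both genes are also on a list of 26 compared YAP/TAZ targets, of which 3 were at least 2-fold higher in library 21 and 0 lower, against the 0.784% higher and 0.848% lower over all genes. Thbs1 and Nt5e were chosen with earlier results of these data known, so the count of 3 is partly set by that choice. The 3rd was Sdpr, which encodes the caveolar protein cavin 2, with 763, 2027 and 4592 scaled counts in shSC, library 20 and library 21 (log2 ratio 1.18). The best-known targets differed less. Cyr61 had 445, 1404 and 1993 scaled counts, a log2 ratio of 0.50 (0.41 to 0.61), Ctgf had a log2 ratio of 0.33 and Ankrd1 0.14. The list's median log2 ratio was 0.16, and its medians against shSC were 0.66 in library 20 and 0.76 in library 21. That Thbs1 and Nt5e had larger ratios between the libraries than Cyr61, Ctgf and Ankrd1 follows in part from how they were chosen.

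Saa3, Ltf and Plet1 were among the genes with the lowest ratios. Saa3 encodes an acute-phase serum amyloid A protein made outside the liver during inflammation. It measured 253, 996 and 173 scaled counts in shSC, library 20 and library 21, a log2 ratio of -2.52 (-2.76 to -2.29), and it was library 20 that stood apart from shSC. Ltf encodes lactoferrin, an iron-binding antimicrobial protein, and had 210, 171 and 32.1 scaled counts, a log2 ratio of -2.37 (-3.00 to -1.86). Here library 20 stayed near shSC and library 21 was low. Plet1, an epithelial surface protein gene, had 821, 440 and 119 scaled counts, so both libraries were below shSC and library 21 was the lower. These 3 genes thus differed in which library lay away from shSC.

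On the acute-phase and antimicrobial list all 8 compared members had a log2 ratio below 0, and 4 were at least 2-fold lower. The ratios ran from -2.52 in Saa3 to -0.09 in Defb1, which hardly differed. Over all genes 49% had a ratio below 0 and 0.848% were 2-fold lower. The list's median was -1.05. Saa3 and Ltf, chosen with earlier results of these data known, are among the 4. That count, the count of 8 and the median are thus partly set by the choice. The others of the 4 were Lyz2 and Slpi. Lyz2, which encodes lysozyme, had 56.5, 260 and 108 scaled counts in shSC, library 20 and library 21, and Slpi, a secreted protease inhibitor gene, had 229, 247 and 112. Ltf and Lyz2 are also on a myeloid marker list, of which 6 of 30 genes were compared. These 2 were at least 2-fold lower (0.848% over all genes) and 1 was higher (0.784%). The latter was Lilr4b, with a log2 ratio of 2.21, in a family of near-copies. Ptprc, Adgre1 and Csf1r, defining markers of that lineage, had no row. Lcn2, the gene of the iron-siderophore binding protein lipocalin 2, was abundant and differed less, with 7490, 8592 and 5511. The 21 compared NF-kB feedback genes had a median of -0.12, and 15 had a ratio below 0 (49% over all genes). Of these 21, 0 were 2-fold apart (1.63% over all genes), which says little in a list of this size. The largest differences were those of Icam1 (-0.62), Zc3h12a (-0.61) and Nfkbia (-0.53).

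Chemokine ligand genes, whose products draw leukocytes, were mostly lower in library 21 as well. Of 15 compared, 13 had a ratio below 0, 4 were at least 2-fold lower and 1 was at least 2-fold higher, and the median was -0.59. The shares over all genes were 49% below 0, 0.848% at least 2-fold lower and 0.784% at least 2-fold higher. Ccl20, which attracts CCR6-bearing cells, had 2844, 4764 and 1672 scaled counts in shSC, library 20 and library 21, a log2 ratio of -1.51 (-1.59 to -1.43) with the libraries on opposite sides of shSC. Ccl2, the monocyte attractant, had 361, 1417 and 599, so both libraries were above shSC and library 20 by more. The neutrophil attractant Cxcl1, named to complete the count, had 8481, 7874 and 3849, and Ccl7 had 42.8, 101 and 47.6.

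Ppbp was the exception among the chemokines. It encodes a platelet-type CXC chemokine and measured 115, 92.1 and 433 scaled counts in shSC, library 20 and library 21, a log2 ratio of 2.22 (1.90 to 2.58). Ccl9, another member, hardly differed between the libraries, at a log2 ratio of 0.03. Among 16 cytokine genes of the IL-1, IL-6 and CSF families, 1 was 2-fold lower and 0 were higher (0.848% and 0.784% over all genes), with a median of -0.06. That gene was Csf3, which encodes the granulocyte growth factor G-CSF, at 498, 377 and 141 scaled counts. Il18 had 34.1, 87.9 and 44.7 and Csf2 had 1475, 1214 and 735. Other genes with leukocyte-linked roles among the largest differences were Alox5ap, needed for leukotriene synthesis (235, 414 and 148), Spn, the sialophorin gene (319, 440 and 178), and Ncf4, an NADPH oxidase regulatory subunit gene (384, 350 and 90.4).

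**Figure D2:**
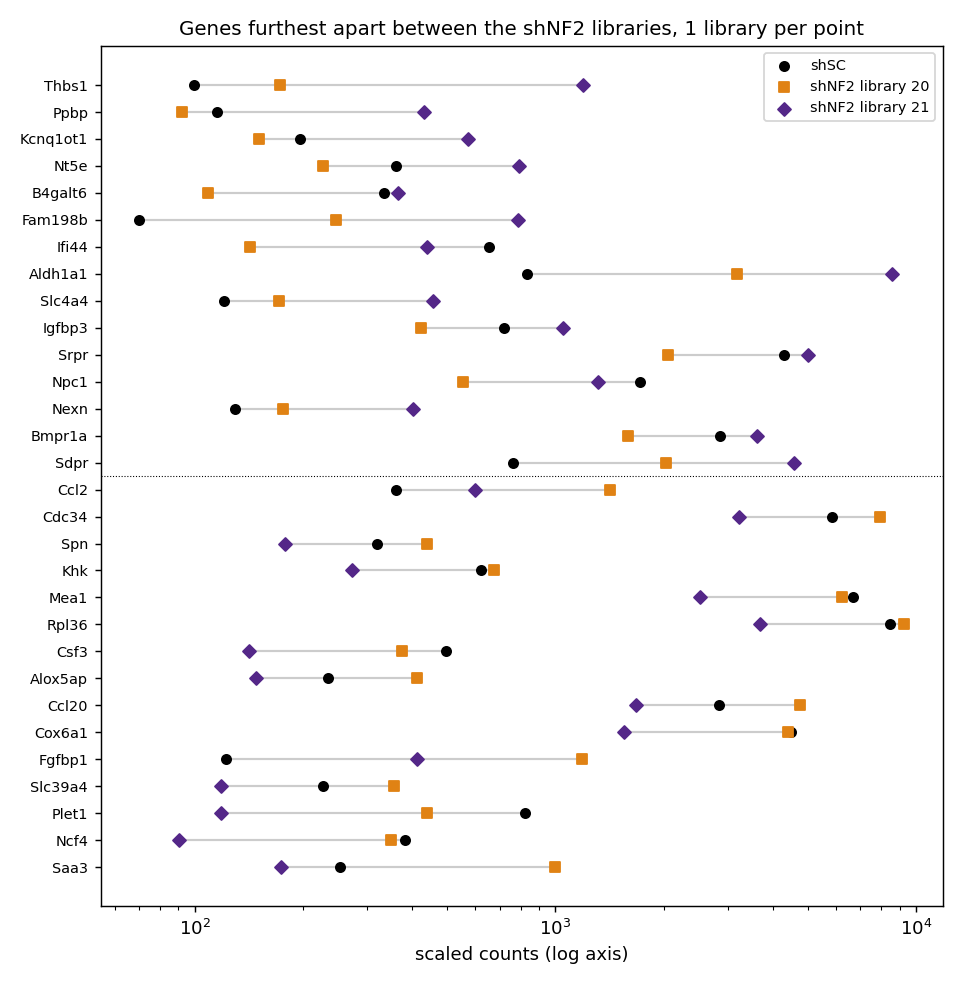
Scaled counts (log axis) in shSC, library 20 and library 21, 1 point per library, for the 15 genes with the largest and the 15 with the smallest ratio of library 21 to library 20 among those with a mean of at least 200. Thbs1 shows 99.3, 173 and 1196 and Saa3 253, 996 and 173; for Cox6a1 the shSC and library 20 points almost coincide (4485 and 4420) and library 21 is at 1547.

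Interferon-stimulated genes and the genes of antigen presentation, which are often induced together, differed in opposite directions between the libraries. Of 41 compared interferon-stimulated genes 6 were at least 2-fold higher in library 21 and 0 lower, against 0.784% and 0.848% over all genes, and the median was 0.24. Ifi44 had 654, 142 and 440 scaled counts in shSC, library 20 and library 21 (log2 ratio 1.62, interval 1.35 to 1.92), Usp18, which removes ISG15 from proteins, had 360, 74.3 and 181, and Gbp3 had 72.1, 43.9 and 92.3. Ifit1, an RNA-binding antiviral gene, had 122, 101 and 275. The other two, named after their values were seen, were Rtp4 (501, 171 and 353) and Oasl2 (241, 105 and 212). In Ifi44, Usp18, Rtp4 and Oasl2 both libraries were below shSC, library 20 by more; in Ifit1 and Gbp3 library 20 was below and library 21 above shSC.

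The list was not uniform. Irf7, the interferon-inducible transcription factor gene, had 1146, 506 and 355 scaled counts, a log2 ratio of -0.51, and Isg15 had a log2 ratio of -0.02. Some members, such as Oas, Ifit and Gbp genes, belong to families of similar copies among which reads can be split.

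Of 24 compared genes of MHC class I and peptide loading, 20 had a ratio below 0 (49% over all genes), with a median of -0.45. At least 2-fold lower were 2 and at least 2-fold higher 1, against 0.848% and 0.784% over all genes. The inducible proteasome subunit genes Psmb9 and Psmb8 had 1207, 1229 and 551 and 3870, 4868 and 2324 scaled counts in shSC, library 20 and library 21. Their log2 ratios were -1.16 and -1.07, and they came to -0.98 and -0.92 once a trend over GC and transcript length, described further on, was subtracted. Tap2, a subunit of the peptide transporter, had 144, 263 and 139. The member that was higher, H2-Q7 (72.1, 71.1 and 155), is one of the near-identical H2-Q genes and its value is uncertain. The light chain gene B2m differed little, with a log2 ratio of -0.12.

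Genes of the actin cytoskeleton tended to be higher in library 21. Of 28 compared, 20 had a ratio above 0 (51% over all genes) and 1 was 2-fold higher (0.784% over all genes). The median was 0.24, or 0.37 after subtraction of the GC and length trend. The pair of cytoplasmic actins went in opposite directions. Actg1, the gamma actin gene, had 4088, 3489 and 7797 scaled counts in shSC, library 20 and library 21, a log2 ratio of 1.16. Actb, the beta actin gene, had 30415, 34985 and 23876, a log2 ratio of -0.55 (-0.57 to -0.53). Actin genes have processed copies in the genome, and reads that map to several places are not in these counts.

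Members of a family differed: the tropomyosin genes Tpm4, Tpm3, Tpm1 and Tpm2 had log2 ratios of 0.76, 0.49, 0.25 and -0.18, and the calponin genes Cnn2 and Cnn3 had 0.74 and -0.06. Tpm4 had 14843, 13971 and 23690 scaled counts and Cnn2 had 1045, 1815 and 3039. Outside this list, Nexn, which encodes the filament-binding protein nexilin, had 130, 176 and 403 and Palld, the palladin gene, chosen after its value was seen, 25.3, 33.5 and 104. Acta2, smooth muscle actin, was under the level filter and was also chosen after its value was seen. Its reads numbered 1, 1 and 71 in shSC, library 20 and library 21, a ratio of 66.0 between the shNF2 libraries with a counting interval from 11.5 to 2642 on the linear scale. Tagln, another smooth muscle gene, had 1, 4 and 14 reads, so both were low in shSC and library 20 and Tagln in all 3.

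Among adhesion, matrix and transition genes the differences were smaller and mixed. Of 12 compared mesenchymal transition factors and cadherins, 9 had a ratio above 0 (51% over all genes), with a median of 0.21. Past 2-fold were 0 of them (1.63% over all genes). Cdh2, the N-cadherin gene, had 103, 120 and 228 scaled counts, Snai2, a transcriptional repressor of epithelial genes, 300, 228 and 409, and Fn1, the fibronectin gene, 2001, 711 and 1341. Of 20 collagens, laminins and matrix glycoproteins 0 were 2-fold apart (1.63% over all genes), with a median of -0.17. Lamb3, a laminin chain gene, had a log2 ratio of -0.85 (-1.29 to -0.44). Of 15 keratin and epithelial junction genes 12 had a ratio below 0 (49% over all genes). Their median of -0.20 came to -0.05 after subtraction of the GC and length trend.

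Secreted and pericellular enzymes and growth factor genes supplied several large differences. Of 15 metalloproteinase and inhibitor genes 2 were at least 2-fold higher in library 21 and 0 lower (0.784% and 0.848% over all genes), with a median of 0.12. They were Adam12, a membrane-anchored sheddase gene, at 119, 47.1 and 161 scaled counts, and Adamts5, an aggrecan-cleaving enzyme gene, at 11.7, 37.7 and 99.1. In the growth factor and receptor kinase list (20 compared, median 0.20), Igfbp3, which binds insulin-like growth factors, had 719, 424 and 1050, and Flt1, which encodes a VEGF receptor, 680, 444 and 200. Fgfbp1, a carrier that releases fibroblast growth factors from the matrix, measured 122, 1187 and 413 scaled counts in shSC, library 20 and library 21. Aldh1a1, a retinal-oxidising enzyme gene, had 834, 3188 and 8594, so for both of these genes the shNF2 libraries shared a direction against shSC and differed in its size.

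A joint list of clade B serine protease inhibitor genes and the plasminogen system had 13 compared members and a median of -0.06. At least 2-fold higher were 2 and 0 were lower (0.784% and 0.848% over all genes), while 5 had a ratio above 0 and 8 below. Serpinb9, an inhibitor of granzyme B, had 3910, 3556 and 7257 scaled counts, and its log2 ratio of 1.03 came to 0.84 after subtraction of the GC and length trend. Serpinb8 had 94.4, 50.2 and 122. Serpinb1a, also of clade B, went the other way at 231, 109 and 56.4, a log2 ratio of -0.94. Clade B genes have related copies.

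On the list of small proline-rich and Ly6-type surface protein genes, 2 of 10 compared were at least 2-fold lower and 0 higher (0.848% and 0.784% over all genes). They were Plet1, chosen with earlier results of these data known, and Ly6c1 (159, 114 and 49.6 scaled counts). Ly6c1 had only 109 reads in library 20 and 51 in library 21. The small proline-rich group is dominated by near-copies, and Sprr2e and Sprr2d had log2 ratios of 0.97 and 0.66.

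**Figure D3:**
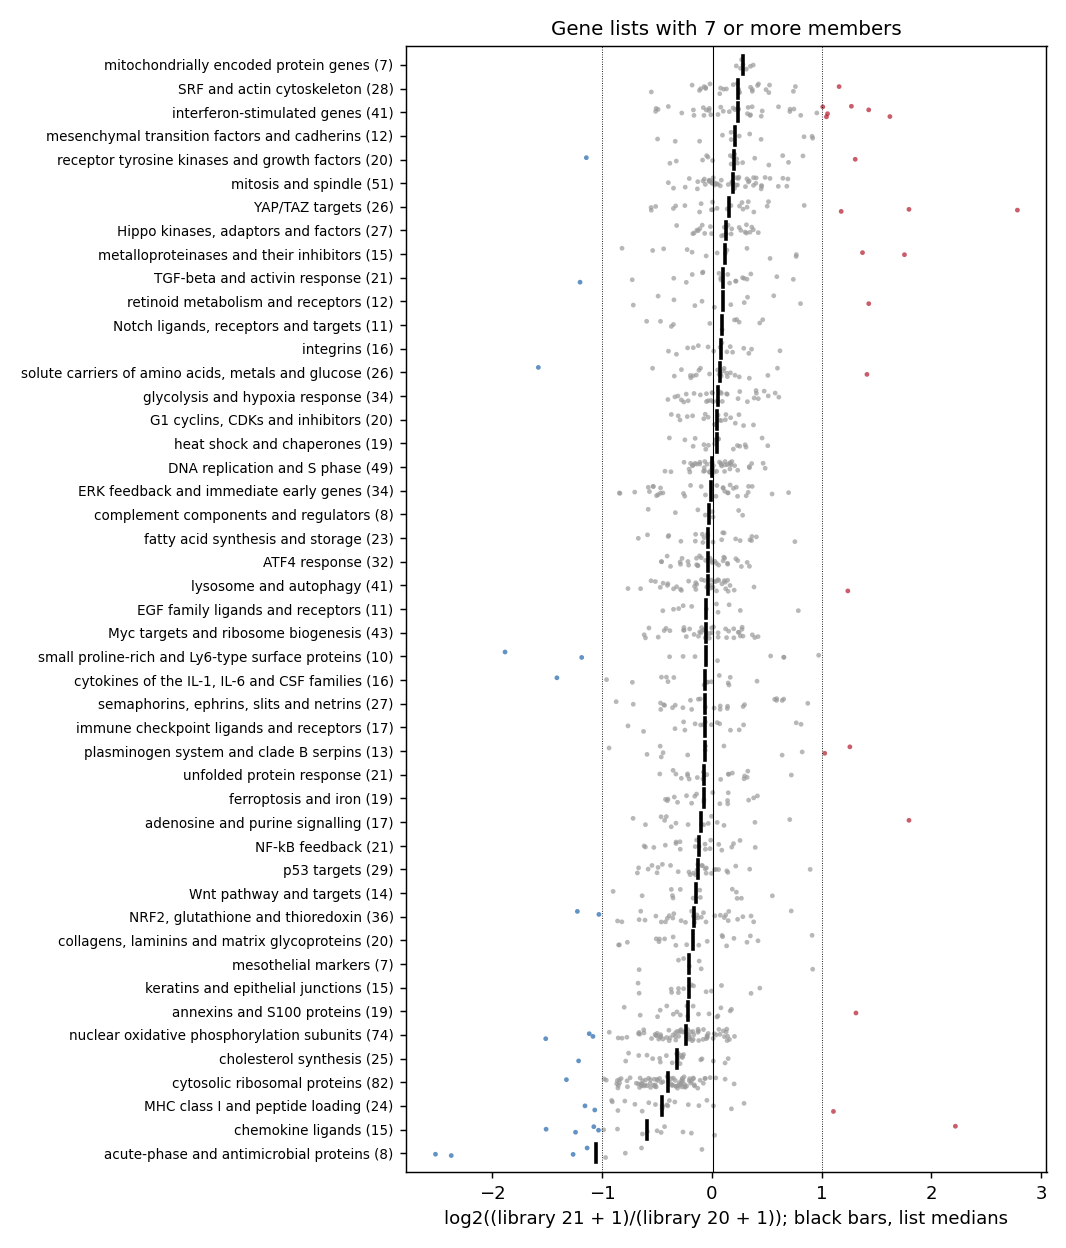
Log2 ratio of library 21 to library 20 for the members of each gene list with 7 or more compared genes (number in brackets), 1 point per gene, red for at least 2-fold higher and blue for at least 2-fold lower; black bars are list medians and the thin line is the median of all genes. Acute-phase genes have the lowest median (-1.05) and mitochondrially encoded genes the highest (0.28), and most lists lie within 0.25 of 0.

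Cytosolic ribosomal protein genes, which build the translation machinery, were lower in library 21 almost as a block. Of 82 compared, 79 had a ratio below 0 (49% over all genes), the median was -0.40, and 1 was 2-fold lower (0.848% over all genes). Against shSC the medians were -0.06 in library 20 and -0.53 in library 21, so that the median of library 21 lay further from shSC. Rpl36 had 8477, 9266 and 3698 scaled counts in shSC, library 20 and library 21 (log2 ratio -1.32), Rplp1 19706, 20024 and 10140, and Rps9 58581, 64115 and 32922. Together the genes named Rpl or Rps and a number took 11.7% of the gene reads in shSC, 11.3% in library 20 and 9.06% in library 21. Ribosomal protein genes have many processed copies, and some of their reads may have been assigned elsewhere.

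Subunits of oxidative phosphorylation differed by genome of origin. Of 74 subunits encoded in the nucleus, 61 had a ratio below 0, 3 were at least 2-fold lower and 0 higher, and the median was -0.24. The shares over all genes were 49%, 0.848% and 0.784% in that order. Cox6a1, a subunit of cytochrome c oxidase, had 4485, 4420 and 1547 scaled counts in shSC, library 20 and library 21 (log2 ratio -1.51, interval -1.60 to -1.43). Atp5l, an ATP synthase subunit gene, had 721, 545 and 251, and Uqcr11, a complex III subunit gene, 2261, 2400 and 1132. All 7 compared mitochondrially encoded genes had a ratio above 0 (51% over all genes), with a median of 0.28. Past 2-fold were 0 of them (1.63% over all genes). mt-Co1 measured 253918, 131904 and 163987 scaled counts in shSC, library 20 and library 21, so both shNF2 libraries were below shSC and library 20 was the lower.

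Cholesterol synthesis genes were mostly lower in library 21. Of 25 compared, 22 had a ratio below 0 (49% over all genes), 1 was 2-fold lower (0.848%) and the median was -0.31. Against shSC their medians were 0.39 in library 20 and -0.04 in library 21, the reverse of the ribosomal case: here library 20 was the one away from shSC. Mvd, which makes isopentenyl diphosphate from a mevalonate derivative, had 236, 317 and 136 scaled counts. It was further from shSC in library 21 (log2 ratio -0.79) than in library 20 (0.43), as was Idi1 (-0.46 and 0.30). Fdps, the next prenyl synthase in the pathway, had 541, 905 and 525, with library 20 the further from shSC. Npc1, which exports cholesterol from lysosomes, is a member of another list and was higher in library 21 than in library 20, with 1711, 553 and 1308 scaled counts. For Npc1 it was library 20 that departed from shSC, with log2 ratios to it of -1.63 in library 20 and -0.39 in library 21.

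Genes of cell division differed little. Of 51 mitosis and spindle genes 38 had a ratio above 0 (51% over all genes) and 0 were past 2-fold (1.63% over all genes). Their median was 0.19 (0.11 after subtraction of the GC and length trend), and Aspm and Mki67 had log2 ratios of 0.69 and 0.68. The 49 DNA replication genes had a median of 0.01. Of 36 genes of the NRF2, glutathione and thioredoxin systems, which detoxify oxidants, 2 were at least 2-fold lower and 0 higher (median -0.16). They were Aldh3a1 at 2275, 3746 and 1602 scaled counts and Gstt1 at 271, 287 and 140. The shares over all genes were 0.848% lower and 0.784% higher. Cdc34, which encodes a ubiquitin-conjugating enzyme, had 5826, 7933 and 3220. Of 26 solute carriers 1 was past 2-fold on each side, the bicarbonate transporter gene Slc4a4 at 121, 172 and 459 and the zinc importer gene Slc39a4 at 227, 357 and 119.

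No member was 2-fold apart among p53 targets (29 compared, median -0.13), ATF4 response genes (32, median -0.04), unfolded protein response genes (21, median -0.07), glycolysis and hypoxia genes (34, median 0.05), ERK feedback and immediate early genes (34, median -0.01), Myc targets and ribosome biogenesis genes (43, median -0.05) and heat shock genes (19, median 0.04). The background of 1.63% of all genes past 2-fold in either direction stands beside these counts of 0, which say little in lists of this size.

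The single shSC library was then used as a reference for which library departed, among the 177 genes past 2-fold. A library was taken to depart when it was at least 2-fold from shSC while the other was within a log2 ratio of 0.58 (about 1.5-fold). Library 21 departed in 58 genes and library 20 in 24. Where both libraries were at least 0.58 from shSC on the log2 scale, they lay on opposite sides of it in 13 genes and on the same side in 27. The other 55 met none of these limits. In all of them 1 library was below shSC and the other was not, which follows from the limits and the choice of genes 2-fold apart. With 0.32 in place of 0.58, the 13 became 56. Over all compared genes 3.32% were at least 2-fold from shSC in library 21 (1.65% higher, 1.67% lower) and 2.75% in library 20 (1.34% higher, 1.41% lower). Both ratios use the same shSC library, so its own deviation enters each of them.

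In the 27 genes where both shNF2 libraries were at least 0.58 from shSC on the same side, the libraries differed in how far they were from it. Fam198b had 70.1, 247 and 787 scaled counts in shSC, library 20 and library 21, with both above shSC. Anxa10, an annexin gene and the 1 of 19 compared annexin and S100 genes past 2-fold (1.63% over all genes), had 1756, 98.3 and 246, with both far below. Lilr4b showed the same order as Anxa10, at 543, 26.2 and 124.

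Among the 177 genes past 2-fold, departures of both libraries were more often downward. Over all compared genes, 1.65% were at least 2-fold above shSC in library 21 and 1.67% below. In library 20 these shares were 1.34% and 1.41%. Of the 58 genes in which library 21 departed, 37 were low in library 21 and 21 were high. The low ones included Ltf, Ncf4, Cox6a1, Csf3, Rpl36, Gdf15, a stress-induced TGF-beta family cytokine gene (300, 294 and 127 scaled counts), Khk, the fructokinase gene (623, 677 and 273), and Mea1 (6674, 6240 and 2522), each in the order shSC, library 20 and library 21. The high ones included Ppbp, Slc4a4, Nexn and Kcnq1ot1, a long antisense RNA of an imprinted region (196, 151 and 573). Ces1g, a carboxylesterase gene below the level limit for named genes and chosen after its value was seen, had the largest ratio of all compared genes: 19.5, 16.7 and 199 scaled counts, a log2 ratio of 3.50 (2.84 to 4.41).

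Of the 24 genes in which library 20 departed, 16 were low in library 20 and 8 were high. Saa3 was among the high ones. Several of the low ones were well expressed. That shSC and library 21 were within about 1.5-fold of each other follows from the definition of this class. B4galt6, a glycolipid galactosyltransferase gene, had 334, 109 and 366 scaled counts in shSC, library 20 and library 21, and Srpr, which encodes a subunit of the signal recognition particle receptor, 4297, 2056 and 5009. Atp1b3, a sodium pump subunit gene chosen after its value was seen, had 8700, 3900 and 8485 (log2 ratio 1.12, interval 1.07 to 1.18). Klhl1, also chosen after its value was seen, had 236, 26.2 and 166. Bmpr1a, a BMP receptor gene, was also lowest in library 20, at 2852, 1585 and 3609, although it fell short of the 2-fold limit against shSC.

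**Figure D4:**
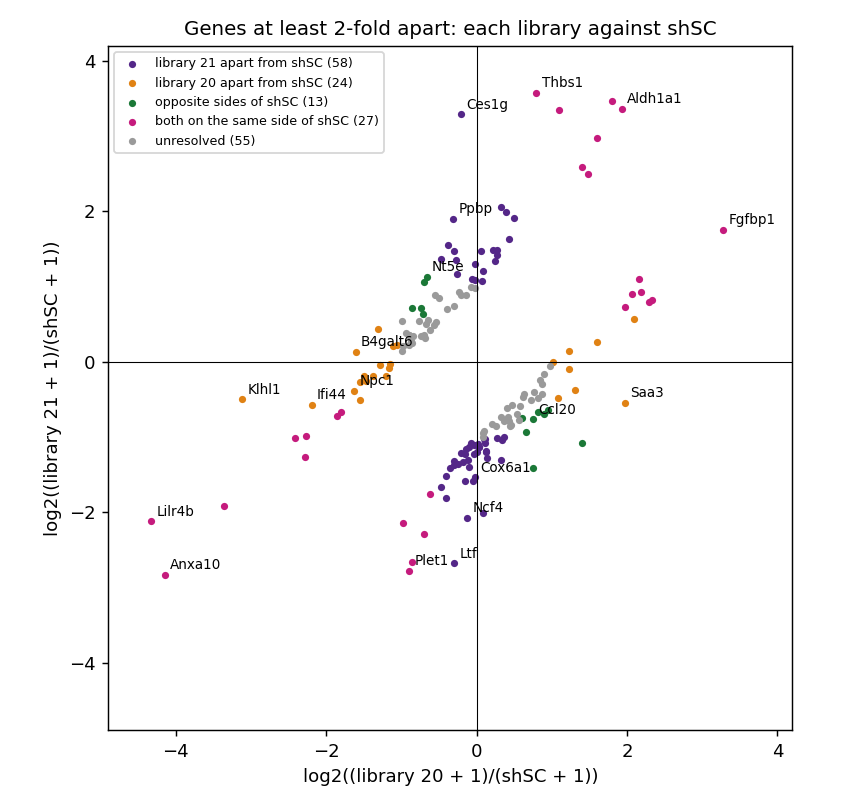
Log2 ratio of library 20 to shSC (x axis) and of library 21 to shSC (y axis) for the 177 genes at least 2-fold apart between the shNF2 libraries, coloured by which library departed; both axes share the single shSC library. Ltf and Cox6a1 lie near 0 on the x axis and low on the y axis, Klhl1 and B4galt6 lie left of 0 near the x axis, and the empty diagonal band follows from the choice of genes 2-fold apart.

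The ratio between the libraries moved with the GC content and length of transcripts. No mouse transcript sequences were used, so the median GC and length of human protein-coding transcripts of the same symbol stood in for 9129 genes (84.2%). In 8 equal groups by GC the median log2 ratio went from 0.16 at the lowest GC (median 38.7%) to -0.25 at the highest (63.3%). The groups by length ran from -0.05 in the shortest to 0.14 in the longest. Across genes, which share a library and are no replicates, Spearman's rho was -0.444 with GC and 0.231 with length, and a smooth trend over both explained 20.0% of the deviance of the log2 ratio. The medians against shSC ran from 0.19 to -0.30 over the GC groups in library 21 and from 0.02 to -0.04 in library 20.

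After this trend was subtracted, the medians were -0.36 for ribosomal protein genes, -0.33 for cholesterol synthesis genes, -0.57 for chemokine ligands and 0.17 for interferon-stimulated genes. Thbs1 then had a log2 ratio of 2.81, Nt5e 1.75, Ltf -2.33 and Plet1 -1.92; Saa3 had no stand-in. Of 55 named genes past 2-fold, 9 no longer were: Aldh3a1, Mvd, Gdf15, Psmb9, Psmb8, Uqcr11, Serpinb9, Gbp3 and Bmpr1a. The acute-phase, MHC class I and nuclear oxidative phosphorylation lists had stand-ins for fewer than 80% of their members, so the check is void for them. For the same reason no count of genes past 2-fold was corrected, since 122 of the 177 (68.9%) had stand-ins. The part of GC and length in the remaining differences was not tested.

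**Figure D5:**
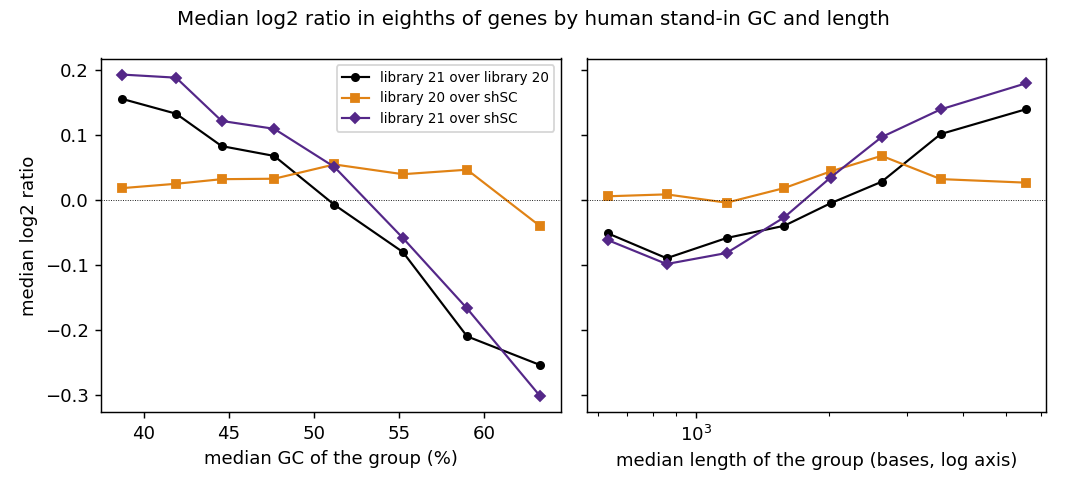
Median log2 ratio in 8 groups of equal size, by stand-in GC (left, %) and stand-in transcript length (right, bases, log axis), for library 21 over library 20 and for each library over shSC. The black line goes from 0.16 at the lowest to -0.25 at the highest GC, and library 20 over shSC stays between -0.04 and 0.07 in both panels.

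The libraries also differed in transcripts that are not typical messenger RNA. Gm42418, a gene model that overlaps ribosomal RNA sequence, held 0.731% of gene reads in shSC, 1.44% in library 20 and 0.498% in library 21. It had 210202, 389987 and 129800 scaled counts, a log2 ratio of -1.59. Gm26917, a model of the same kind, had 301, 583 and 192, and Rmrp, the RNA of the RNase MRP complex, 53.6, 91.0 and 19.4. These 3, chosen after their values were seen, had the same order in all libraries, library 20 above shSC above library 21; their part in the other differences was not tested.

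Gene reads numbered 29532600 in shSC, 25837151 in library 20 and 26829163 in library 21, and 47.7% to 48.7% of the reads in each library were not assigned to a gene. Most of those had no unique alignment (37.5%, 36.5% and 35.5% of reads in shSC, library 20 and library 21). Reads outside annotated features were 5.94%, 5.65% and 6.38%. Of 17 mesothelial markers 7 had a row in the table, Msln with 7397, 9722 and 8977 scaled counts in shSC, library 20 and library 21 and Krt18 with 23657, 20443 and 16561, whereas Wt1, Upk3b, Lrrn4 and Pdpn were not among its rows. Of 30 macrophage and myeloid markers 9 had a row, with summed levels of 10127, 8796 and 8283, mostly Mrc1 (5940, 5617 and 6215) and Cd14. Endothelial markers summed to 235, 160 and 125 over 4 rows and lymphocyte markers to 115, 439 and 395 over 2, the latter almost wholly Tigit. Fibroblast and smooth muscle markers, 6 of 20 with a row, summed to 67570, 48726 and 34758, of which S100a4 was nearly all.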

How the data were processed

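RNA of 3 AB12 libraries was measured by polyA-selected, stranded paired-end sequencing, per the labels' protocols. The authors deposited 1 table of gene signal (scaled counts). Tools listed, without roles, in the submitters' processing notes are DESeq 1.22.1, HTSeq 0.5.3, STAR 2.5.0a and cutadapt 1.6, with build mm10; the strand setting of the counting and the filter on low genes are not given in the sources used here. Every value was a whole number of reads (tolerance 0.001; 100% of values) divided by a library factor (shSC 1.03, library 20 0.956, library 21 1.03), and reads were recovered this way. Rows naming no gene held 48.6%, 48.7% and 47.7% of reads and were left out.

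With 1 library on each side no count test of the recovered reads could be fitted, so none was run and it calls no genes. Ratios used a pseudocount of 1. Named genes were Nf2, Thbs1, Nt5e, Saa3, Ltf and Plet1, the 15 largest and 15 smallest ratios where the mean reached 200 (models without a gene name left out), and in each of 53 lists the 4 members, at most, with the largest absolute ratio. Genes and lists were chosen with earlier results of these data known. Others named beside a count or a contrast were chosen after their values were seen. Stand-ins came from GENCODE 29; trends were fitted with mgcv 1.9.3 in R 4.3.3 and TMM factors with edgeR 4.0.16. Scripts were tested on simulated data. Planned promoter motif searches were not run, as no mouse promoters were used here. A few list members are not reported here.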

Additional observations from a re-analysis of the deposited data

How the results depend on the processing

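The counts of 85 higher and 92 lower genes stayed within 1.5 times of these values under other pseudocounts, TMM, library-total and median scaling and a level trend (67 to 94 higher, 75 to 94 lower). They were 405 and 403 with no filter on low values, 25 and 44 at a mean of at least 200, and 34 and 31 when the whole counting interval had to be past 2-fold. With limits of 1 and 0.32 for departure from shSC, library 20 departed in 15 genes, 56 lay on opposite sides and 21 were unresolved; library 21 then departed in 45. Of 55 named genes past 2-fold, 9 were no longer so after subtraction of the GC and length trend and 3 with a pseudocount of 10, and 0 changed direction under the alternatives run. The medians of 14 of 50 lists changed sign under at least 1 alternative, the largest of these 14 being 0.094 in size as reported, so the direction of lists nearer to 0 than that is not settled. Scaling to library totals shifted all log2 ratios by 0.05. No paired analysis was possible because the groups share no replicate numbers. Leaving out a replicate was not run, since either library is 1 side of the comparison. The GC and length correction of the gene counts was not run, as too few of those genes had stand-ins. Depth limits ratios of genes near 50 scaled counts.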
